A study of Mus musculus with 32 samples.

Results

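Non-growing mouse oocytes at postnatal day 6 (P6) carried 7925 broad regions of H2AK119ub at which H3K27me3 was listed at no wild-type stage. They were drawn from the wild-type (WT) P6 peak list for H2AK119ub, the ubiquitinated form of histone H2A. A region was taken when it lay on an autosome, was at least 5 kb wide and shared not 1 bp with a peak in any of the 4 WT lists for H3K27me3, trimethylated lysine 27 of histone H3. Of the 61419 peaks in the P6 list, 58707 were autosomal and 43358 of these reached 5 kb. The remaining 35433 regions of that width overlapped WT H3K27me3 and served for comparison. The 7925 regions covered 68621 kb. The regions were chosen by their measured width in the P6 H2AK119ub list and their overlap with the WT H3K27me3 lists, so values from those lists are given only as a description.

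The chromatin was profiled by CUT&Tag, in which an antibody directs a transposase to a histone mark and the DNA beside it is cut and joined to sequencing adapters. The series held 32 samples of oocytes from mouse ovaries in 16 groups of 2, with 6 groups for H2AK119ub and 10 for H3K27me3. Knockout oocytes at P6 carried Ddx4-Cre, which recombines floxed alleles in the germ line, with 1 floxed and 1 null allele of Eed (EedF/-, PRC2cKO), and their controls carried Ddx4-Cre with 1 floxed and 1 intact Eed allele (EedF/+, PRC2ctrl). H3K27me3 alone was also profiled in 2 PRC1 genotypes at P6 and at P7. The PRC1cKO label names Ring1-/- with Ring1F/- and Ddx4-Cre, and the PRC1ctrl label names Ring1-/- with Rnf2F/+ and Ddx4-Cre, so which gene was floxed in the knockout was not settled. WT oocytes were taken at embryonic stage E18.5, shortly before birth, at P1, as non-growing oocytes at P6 and as growing oocytes at P7. No label says how many animals or ovaries went into a sample.

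H2AK119ub is deposited by Polycomb repressive complex 1 (PRC1), whose catalytic subunits are RING1 and RNF2. Canonical PRC1 reaches chromatin through CBX proteins that bind H3K27me3, the mark set by PRC2 with its subunits EED, SUZ12 and EZH2, whereas variant PRC1 is recruited without that mark, through DNA-binding partners such as KDM2B and the E2F6 and MGA group. In the other direction, PRC2 that contains JARID2 and AEBP2 can read H2AK119ub. Regions that hold the PRC1 mark without the PRC2 mark are therefore places where the 2 marks were listed apart.

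The promoters below show the DNA at 7 of the regions described further on, because the regions reach from CpG-rich promoters of widely used genes to CpG-poor starts inside genes. Each is the RefSeq sequence of GRCm38.p6 from 250 bases before to 50 bases after an annotated start, on the strand of the gene, with CpG in capitals. Plxnb1 (chr9:109095186-109095485, plus strand), Atp5d (chr10:80142025-80142324, plus strand) and Cep131 (chr11:120086778-120087077, minus strand) lie in regions found in all 6 H2AK119ub lists. Gmip (chr8:69808437-69808736, plus strand) and Ndufs7 (chr10:80249199-80249498, plus strand) lie in regions found in PRC2cKO and not in PRC2ctrl. Ppm1f (chr16:16896219-16896518, plus strand) and Tspan14 (chr14:40948160-40948459, minus strand) lie in regions found in PRC2ctrl and not in PRC2cKO.
Plxnb1: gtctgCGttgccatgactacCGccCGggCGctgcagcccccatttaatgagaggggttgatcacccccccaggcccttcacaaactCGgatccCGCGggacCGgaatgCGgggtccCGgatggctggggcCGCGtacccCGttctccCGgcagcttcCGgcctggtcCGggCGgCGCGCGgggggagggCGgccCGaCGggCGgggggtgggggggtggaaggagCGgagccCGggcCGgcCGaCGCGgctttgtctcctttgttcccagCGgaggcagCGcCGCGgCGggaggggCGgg
Atp5d: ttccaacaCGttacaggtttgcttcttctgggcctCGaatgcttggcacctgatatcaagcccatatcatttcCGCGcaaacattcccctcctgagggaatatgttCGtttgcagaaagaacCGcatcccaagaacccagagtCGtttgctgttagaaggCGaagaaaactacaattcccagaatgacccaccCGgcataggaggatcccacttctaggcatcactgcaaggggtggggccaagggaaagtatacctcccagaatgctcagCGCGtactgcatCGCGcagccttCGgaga
Cep131: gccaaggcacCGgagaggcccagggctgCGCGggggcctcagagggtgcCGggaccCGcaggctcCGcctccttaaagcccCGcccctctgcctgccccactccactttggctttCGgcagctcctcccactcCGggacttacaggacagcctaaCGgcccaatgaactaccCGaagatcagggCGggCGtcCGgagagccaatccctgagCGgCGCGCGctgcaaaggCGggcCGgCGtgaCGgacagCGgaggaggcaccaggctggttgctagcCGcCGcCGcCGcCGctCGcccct
Gmip: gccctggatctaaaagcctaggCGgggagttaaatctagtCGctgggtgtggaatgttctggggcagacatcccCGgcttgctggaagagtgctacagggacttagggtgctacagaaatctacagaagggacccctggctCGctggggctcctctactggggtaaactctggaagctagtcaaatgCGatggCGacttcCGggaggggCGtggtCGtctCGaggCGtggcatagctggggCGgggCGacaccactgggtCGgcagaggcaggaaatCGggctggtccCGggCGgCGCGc
Ndufs7: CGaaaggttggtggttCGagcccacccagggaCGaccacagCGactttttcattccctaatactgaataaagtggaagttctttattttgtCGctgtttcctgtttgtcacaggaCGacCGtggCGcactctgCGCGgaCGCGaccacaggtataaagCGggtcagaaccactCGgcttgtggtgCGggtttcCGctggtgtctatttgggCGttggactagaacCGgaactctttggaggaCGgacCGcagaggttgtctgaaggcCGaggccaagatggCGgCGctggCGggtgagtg
Ppm1f: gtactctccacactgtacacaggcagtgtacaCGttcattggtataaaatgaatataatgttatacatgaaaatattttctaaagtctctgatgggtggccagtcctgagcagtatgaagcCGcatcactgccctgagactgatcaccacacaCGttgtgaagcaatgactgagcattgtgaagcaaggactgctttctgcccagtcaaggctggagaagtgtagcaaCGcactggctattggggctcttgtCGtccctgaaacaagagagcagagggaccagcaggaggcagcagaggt
Tspan14: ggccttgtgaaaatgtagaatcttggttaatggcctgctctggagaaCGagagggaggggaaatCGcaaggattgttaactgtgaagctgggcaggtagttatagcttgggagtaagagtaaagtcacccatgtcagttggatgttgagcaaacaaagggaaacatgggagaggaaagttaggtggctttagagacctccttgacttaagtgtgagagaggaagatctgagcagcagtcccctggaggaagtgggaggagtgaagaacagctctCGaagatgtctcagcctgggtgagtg
The numbers of CpG in these promoters were 36 at Plxnb1, 14 at Atp5d, 29 at Cep131, 19 at Gmip and 24 at Ndufs7. Ppm1f held 5 and Tspan14 held 3. The letters GCGGGA, a core of E2F sites, occurred on either strand in the Plxnb1 promoter and in none of the other 6.

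Among the regions of the P6 list, those without H3K27me3 were narrower and weaker. Their median width was 6.85 kb and their median total signal, which is the authors' signal summed over a region, was 35675. Regions with H3K27me3 had a median width of 10.2 kb and a median total signal of 69490. The widest region without H3K27me3 spanned 88.8 kb. From each region the nearest WT H3K27me3 peak at any stage was a median of 12.7 kb away. It lay within 5 kb of 27.1% of the regions and within 50 kb of 84.5%. At the limit of width, the 3 narrowest regions taken were each 5001 bp wide with total signals between 24180 and 30222. The 3 just below it were 4997 to 4999 bp wide with 23634 to 31245. At the limit of overlap, regions left out shared at most 4, 8 and 9 bp with any WT H3K27me3 list, and those kept were as near as 1, 3 and 5 bp to it.

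The regions without H3K27me3 were found in part in both Eed genotypes. In the PRC2cKO H2AK119ub list, 3878 of the 7925 overlapped a peak (48.9%, exact 95% interval 47.83 to 50.04%), against 71.5% of all 43358 regions. In PRC2ctrl, 4150 overlapped a peak (52.4%, interval 51.3 to 53.5%), against 75.9% of all regions. For regions with H3K27me3 the shares were 76.5% in PRC2cKO and 81.2% in PRC2ctrl. The regions without it were the lower of the pair in both genotypes. Most of the P6 length was uncovered in either genotype, since peaks covered 27.3% of the length without H3K27me3 in PRC2cKO and 33.3% in PRC2ctrl. Of the length with H3K27me3, they covered 54.0% in PRC2cKO and 64.6% in PRC2ctrl. Each group had a single list, so nothing here could be set against replicate spread or tested, and the intervals cover counting error only, with neighbouring regions not independent.

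**Figure D1:**
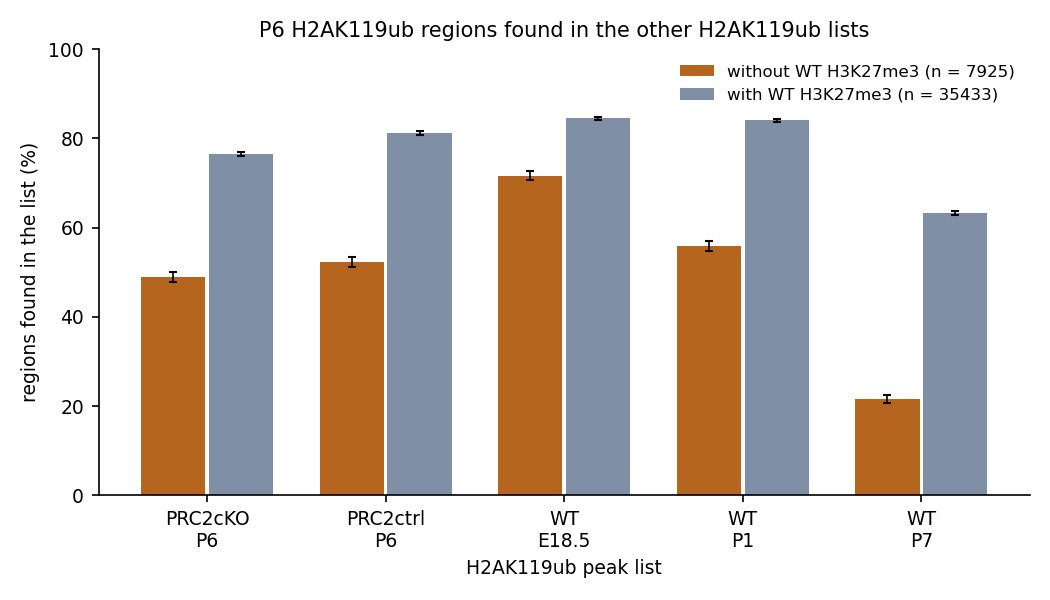
Share of P6 H2AK119ub regions overlapped by at least 1 bp in each of the 5 other H2AK119ub lists, in percent, for the 7925 regions without WT H3K27me3 (brown) and the 35433 with it (grey). Bars start at 0 and error bars are exact 95% intervals; the brown bar is the lower of the pair in every list, with the widest gap at P7 (21.6% against 63.2%).

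The order of the Eed genotypes changed with how the lists were cut. The PRC2cKO H2AK119ub list covered 398 Mb with a lowest total signal of 6577, and the PRC2ctrl list covered 498 Mb with a lowest total signal of 9203. With all lists cut to equal numbers of peaks the order was kept, at 45.1% in PRC2cKO and 53.0% in PRC2ctrl. With all lists cut to the covered length of the shortest, 535 regions qualified. Of these, 93.1% were found in PRC2cKO and 74.0% in PRC2ctrl, against 97.0% and 91.7% of the other broad regions. Both cuts also shortened the WT H3K27me3 lists, so regions that then qualified may overlap peaks of the full lists. When PRC2ctrl alone was cut to the covered length of PRC2cKO, 22.4% of the 7925 regions were found in it, below the 48.9% of PRC2cKO. That cut kept 27921 of 56584 PRC2ctrl peaks, those of highest total signal, and all PRC2cKO peaks. The difference between the genotypes at these regions therefore has no settled direction. The H3K27me3 list of PRC2cKO still held 49615 peaks over 429 Mb, against 53667 peaks over 558 Mb in PRC2ctrl, and any effect of scaling on these lists was not tested.

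Taken region by region, 2911 regions without H3K27me3 were found in both Eed genotypes (36.7%, against 64.4% of all regions). Another 967 were found in PRC2cKO and not PRC2ctrl (12.2%, against 7.08% of all). A further 1239 were found in PRC2ctrl and not PRC2cKO (15.6%, against 11.5%), and 2808 in neither (35.4%, against 17.0%). Of the regions found in PRC2ctrl, 70.1% were also found in PRC2cKO, and for regions with H3K27me3 that share was 87.0%. In the list itself, the strongest PRC2cKO peak over a region without H3K27me3 stood at a median percentile of 45.02 by total signal, against 69.7 over regions with it. The PRC2ctrl medians were close to these, at 45.2 and 71.8.

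Wider regions were found more often. Regions without H3K27me3 were found in PRC2cKO at 35.8% where they were 5 to 7.5 kb wide, at 54.1% from 7.5 to 10 kb, at 73.9% from 10 to 15 kb and at 90.4% from 15 kb. The PRC2ctrl shares in the same classes were 40.6%, 57.0%, 75.2% and 88.6%. In each class the regions with H3K27me3 were found more often, with 52.7%, 72.0%, 85.1% and 97.7% in PRC2cKO.

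**Figure D2:**
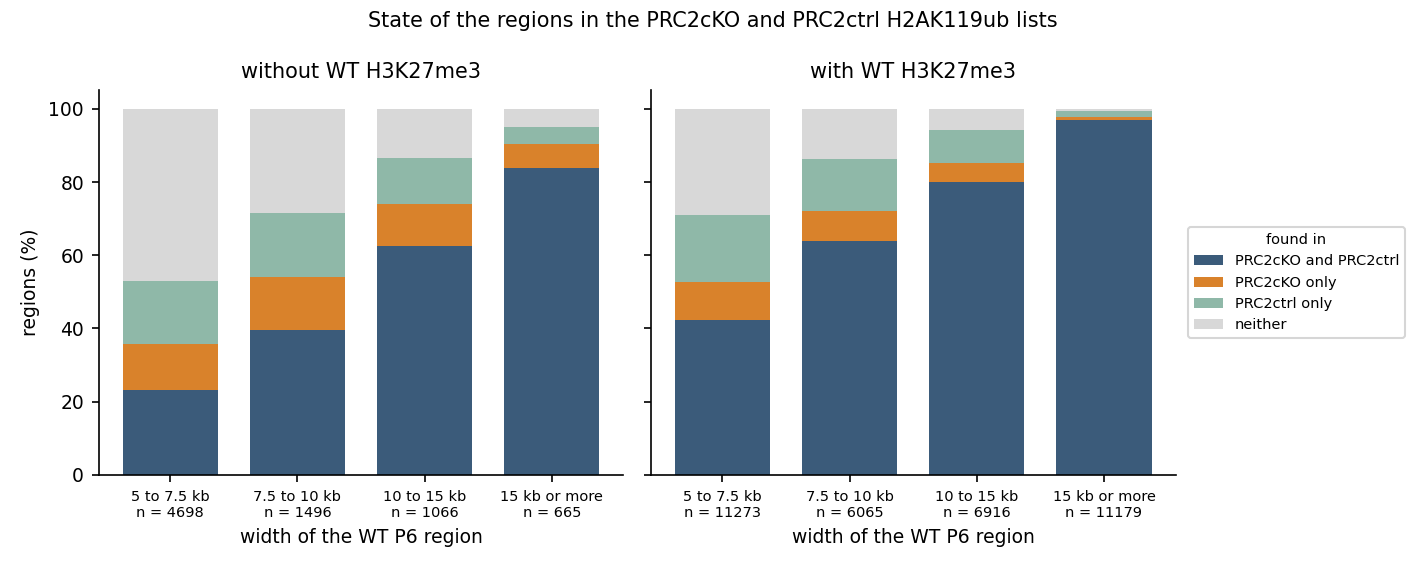
Percent of P6 H2AK119ub regions by their state in the PRC2cKO and PRC2ctrl H2AK119ub lists, in 4 classes of width, for regions without WT H3K27me3 (left) and with it (right). The bars stack to 100%; regions found in both genotypes (dark blue) take 36.7% of all regions without H3K27me3 and the share grows with width.

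At regions with a P6 total signal from 50000 upward, the gap between the 2 kinds of region in the Eed genotypes was smaller than in the pooled shares. With a total signal of 50000 to 100000, the PRC2cKO list held 77.9% of regions without H3K27me3 and 85.1% of those with it. In PRC2ctrl the values were 79.8% and 89.6%. From 100000 upward, PRC2cKO held 97.7% of the 568 regions without H3K27me3 and 99.0% of the 12507 with it. Part of the difference in the pooled shares thus moved with signal.

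Over the WT stages, the regions without H3K27me3 were found most often before birth and least often in growing oocytes. At E18.5, 5677 were found (71.6%, interval 70.6 to 72.6%), against 82.2% of all regions. The P1 list held 4433 (55.9%, interval 54.8 to 57.0%), against 78.9% of all, and the P7 list held 1708 (21.6%, interval 20.6 to 22.5%), against 55.6% of all. Peaks covered 61.9% of their length at E18.5, 41.8% at P1 and 7.3% at P7. The order of the stages was kept with all lists cut to equal numbers of peaks, at 63.1%, 45.9% and 12.6%. It was not kept with all lists cut to equal covered length. The 535 regions that then qualified were found at 57.4% at E18.5, 62.2% at P1 and 92.7% at P7. That cut left the P7 list whole and took only the strongest peaks of the E18.5 and P1 lists. The P7 list as deposited covered 244 Mb, the least of the 16, and the E18.5 list covered 669 Mb.

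By pattern, 2650 regions were found at E18.5 and P1 but not at P7 (33.4%, against 23.3% of all regions), the largest class. At E18.5 alone 1481 were found (18.7%, against 6.79% of all). At all 3 other stages there were 1277 (16.1%, against 49.0% of all), and at none 1626 (20.5%, against 9.26%). In all 6 H2AK119ub lists 945 regions were found (11.9%, against 43.8% of all), and 1079 were found in no list but WT P6 (13.6%, against 5.55%).

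In the lists as deposited, E18.5 was the stage at which the regions came nearest to those with H3K27me3. With all lists cut to equal covered length, those of WT H3K27me3 included, P7 came nearest instead. There 92.7% of the 535 regions that then met the rule were found, against 98.9% of the other broad regions. The pair was 57.4% against 75.4% at E18.5 and 62.2% against 85.1% at P1. The P7 list was left whole by that cut. In the deposited lists, at a total signal under 30000 the E18.5 list held 48.3% of regions without H3K27me3 and 44.4% of those with it. From 30000 to 50000 the shares were 75.5% and 71.0%, and from 50000 to 100000 they were 93.6% and 91.3%. At P1 the regions without H3K27me3 were the lower of the pair in the same classes, with 32.1% against 45.5%, 56.8% against 71.7%, and 79.8% against 89.3%. At P7 the shares were 10.5% against 19.6%, 17.0% against 38.8%, and 33.6% against 63.7%. The E18.5 share also differed with distance from H3K27me3, at 61.9% of regions less than 5 kb from a WT H3K27me3 peak, 71.2% at 5 to 20 kb and 79.0% from 20 kb. PRC2cKO shares in these classes of distance were 45.8%, 49.3% and 50.8%, a narrower span.

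**Figure D3:**
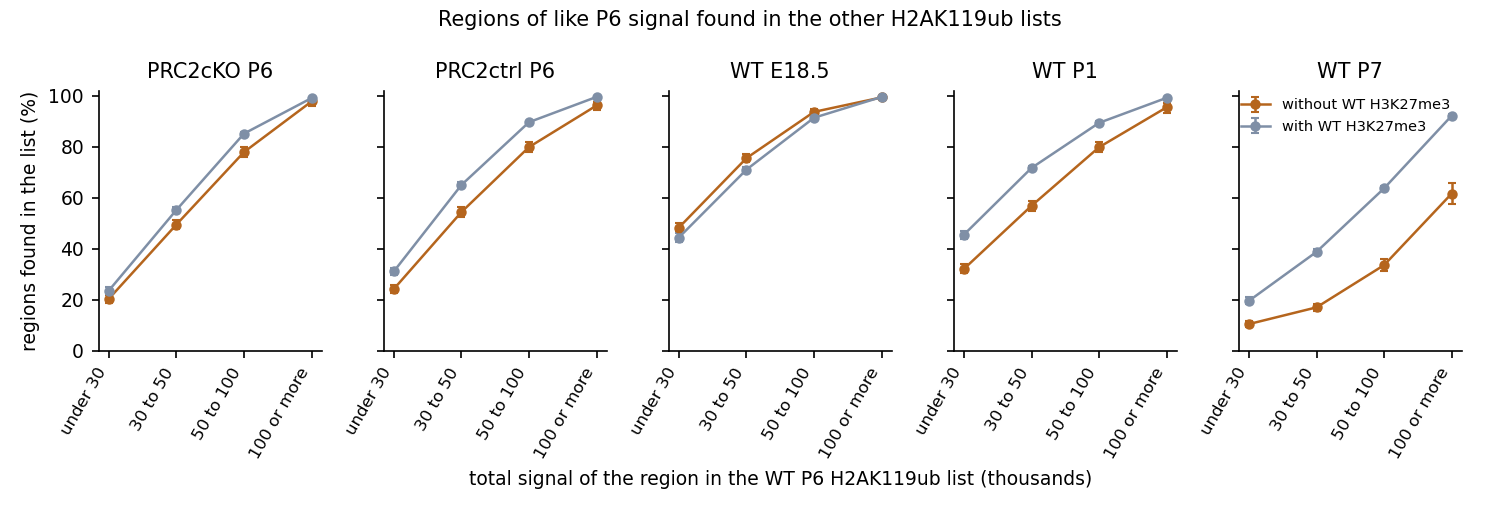
Share of regions found in each H2AK119ub list, in percent, by class of total signal in the WT P6 list (in units of 1000), for regions without WT H3K27me3 (brown) and with it (grey), with exact 95% intervals. The brown line lies above the grey in the 3 lower classes at E18.5 (48.3% against 44.4% in the lowest) and below it in all classes of the other 4 panels.

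Inside Shank2, the gene of a postsynaptic scaffold, lay a region of 75.2 kb (chr7:144002900-144078131). PRC2cKO peaks covered 61.1 kb of it and PRC2ctrl peaks 43.9 kb. It was covered throughout at E18.5 and P1, with 75.2 kb each, and over 2.13 kb at P7. More of it was thus listed in PRC2cKO than in PRC2ctrl, and little of it in growing oocytes. Inpp5a, which encodes an inositol polyphosphate phosphatase, held a region of 77.7 kb, covered over 45.1 kb in PRC2cKO and 58.3 kb in PRC2ctrl. At E18.5, P1 and P7 it was covered over 77.7, 72.5 and 5.06 kb.

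A region of 43.4 kb on chromosome 10 (chr10:80123074-80166495) held the ends of 5 genes, among them Stk11, the kinase LKB1 upstream of AMPK, Atp5d, a subunit of ATP synthase whose promoter is printed above, and Cirbp, a cold-inducible RNA-binding protein. PRC2cKO covered 34.4 kb and PRC2ctrl 42.5 kb of it. E18.5, P1 and P7 covered 43.4, 42.7 and 27.9 kb. It kept the largest covered share at P7, 64.3%, among the 10 regions of highest total signal. The nearest WT H3K27me3 peak was 11.5 kb away, and 2.63 kb of the region carried H3K27me3 in PRC1cKO at P6.

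The region of Ccdc51 and Plxnb1, a receptor of semaphorins, was 40.6 kb wide (chr9:109084490-109125133) and was covered over 29.6 kb in PRC2cKO and 33.9 kb in PRC2ctrl. It had 39.003 kb at E18.5, 36.7 kb at P1 and 16.7 kb at P7. Although no WT list placed H3K27me3 there, PRC2ctrl listed 16.1 kb and PRC1ctrl at P6 listed 10.8 kb of it. PRC2cKO, PRC1cKO at P6 and P7, and PRC1ctrl at P7 listed 0 kb. The region of Cep131, a centrosomal protein, was 63.7 kb wide, with 26.4 kb in PRC2cKO and 26.1 kb in PRC2ctrl. Its stages gave 63.7, 59.8 and 28.8 kb at E18.5, P1 and P7.

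Other regions among the 10 of highest total signal held Mroh1, Bop1 and Scx (49.3 kb), Garnl3 and Ralgps1 (53.9 kb), and Trappc9 (52.5 kb). All 10 were found in both Eed genotypes, at E18.5 and at P1, and 9 were found at P7, the exception being the Trappc9 region. The widest 10 added a region nearest to Shh, 228960 bp away, and 1 inside Ssbp3. The first was 50.1 kb wide with 8.55 kb in PRC2cKO and 20.0 kb in PRC2ctrl. The second was 46.6 kb wide with 2.82 kb in PRC2cKO and 8.31 kb in PRC2ctrl. Both were absent from the P7 list. Tmem268 completed the 10 strongest regions found in all 6 lists.

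Of the regions found in PRC2cKO and not PRC2ctrl, the 10 of highest P6 total signal lay at or in Sfxn5, Atp13a1 and Gmip, Ttc7b, Lrig1, AU040320, Pwwp3a and Ndufs7, Acad9, Mgmt and Pepd, and near Tfap2c. The region of Gmip, a GTPase-activating protein, and Atp13a1 was 21.0 kb wide (chr8:69795598-69816615), with 10.0 kb in PRC2cKO and 0 kb in PRC2ctrl. At E18.5 it had 19.3 kb, at P1 8.12 kb and at P7 0 kb. Ndufs7, a subunit of respiratory complex I, shared its region of 20.0 kb with Pwwp3a. That region had 4.45 kb in PRC2cKO and 0 kb in PRC2ctrl, and 16.1, 4.26 and 6.29 kb at E18.5, P1 and P7. The strongest of the 10 lay 20143 bp from Tfap2c, a transcription factor of primordial germ cells and trophoblast. It was 27.5 kb wide, with 6.47 kb in PRC2cKO and 0 kb in PRC2ctrl. All 10 were found at E18.5 and at P1.

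Of the regions found in PRC2ctrl and not PRC2cKO, the 10 of highest P6 total signal included those at or in Dedd2, Garem1, Top3b and Ppm1f, Sema4d, Fbrsl1, Ago2, Tmem204 and Tspan14, and near Npas3. Dedd2, which encodes a protein with a death effector domain, had the strongest (chr7:25197389-25210415). Its 13.0 kb carried 0 kb in PRC2cKO and 5.21 kb in PRC2ctrl, with 11.8, 11.5 and 6.66 kb at E18.5, P1 and P7. Ppm1f, a protein phosphatase, shared with the topoisomerase gene Top3b a region of 18.4 kb that carried 0 kb in PRC2cKO and 7.40 kb in PRC2ctrl. At E18.5, P1 and P7 it carried 11.6, 9.24 and 0 kb. Ago2, the Argonaute protein that slices target RNA, held a region of 13.6 kb with 0 kb in PRC2cKO and 2.39 kb in PRC2ctrl.

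**Figure D4:**
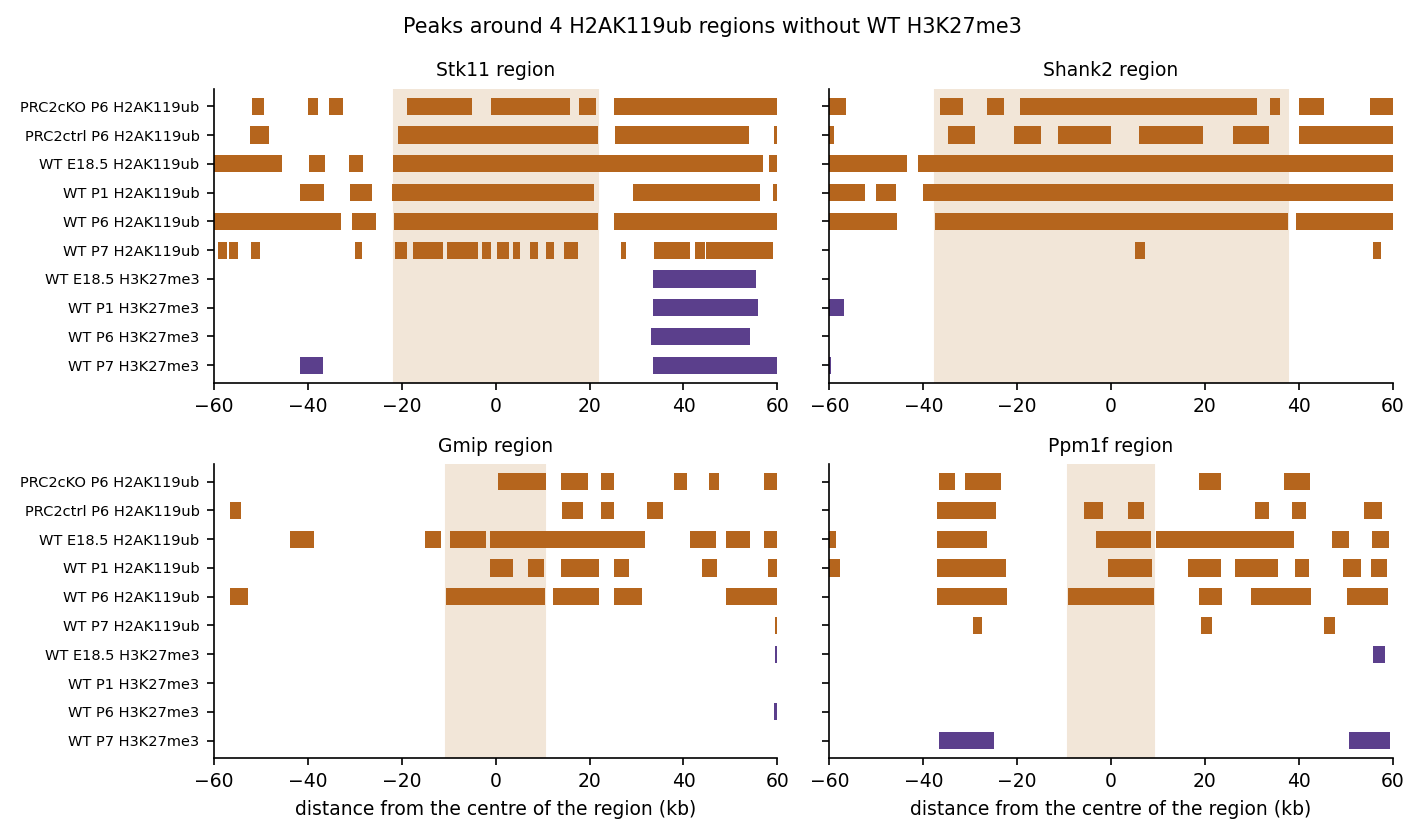
Peaks within 60 kb of the centre of 4 P6 H2AK119ub regions without WT H3K27me3, as distance from the centre in kb, with H2AK119ub lists in brown and WT H3K27me3 lists in purple, and the region shaded. The Stk11 and Shank2 regions carry peaks in all 6 H2AK119ub lists, the Gmip region has 10.0 kb in PRC2cKO and 0 kb in PRC2ctrl, and the Ppm1f region has 0 kb in PRC2cKO and 7.40 kb in PRC2ctrl; the purple bars lie outside the shading.

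Few of the regions carried H3K27me3 in the knockout or control lists. In PRC2cKO 62 did (0.78%, interval 0.60 to 1.00%, against 45.8% of all regions), and in PRC2ctrl 143 did (1.80%, against 59.8%). At P6, 246 did in PRC1cKO (3.10%, against 54.7%) and 294 in PRC1ctrl (3.71%, against 60.1%). At P7, 380 did in PRC1cKO (4.79%, against 59.6%) and 650 in PRC1ctrl (8.20%, against 68.7%). Any of the 6 lists placed H3K27me3 in 1284 regions (16.2%, against 80.7% of all), so 6641 had it in none of the 10 lists. Because the rule removed regions with H3K27me3 in WT, low shares in control genotypes of the same stages follow from the choice of regions and are read no further.

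The 1284 regions were not spread evenly over places. H3K27me3 in any of the 6 lists was found at 30.3% of regions within 5 kb of a WT H3K27me3 peak and at 6.8% of those 20 kb or more from one. Outside genes the share was 30.1%, inside genes 11.8% and at gene ends 10.3%. The most H3K27me3 in a single list was 17.4 kb of a 19.6 kb region in Abcc4, which encodes an exporter of cyclic nucleotides and drugs, in PRC1ctrl at P6. There PRC1cKO listed 5.89 kb at P6, PRC2ctrl 10.1 kb and PRC2cKO 0 kb. At P7 the order was the other way, with 4.58 kb in PRC1cKO and 0 kb in PRC1ctrl. Grip1, a scaffold of glutamate receptors, followed with 17.1 kb in PRC1ctrl at P6, with PRC1cKO at 0 kb. In Tmod2, which encodes a tropomodulin that caps actin filaments, 13.3 kb was listed in PRC1cKO at P7 and 0 kb in PRC1ctrl. The other 7 of these 10 regions lay at or in Plxnb1, Rgl1, 1700012A03Rik, Rai14, Smarca2 and Mast4 and near Prl2c2.

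By position, the regions without H3K27me3 lay mostly within genes. The end of a protein-coding gene lay within 1 kb of 2011 of them (25.4%, against 25.3% of all regions), so at this minimum width gene ends were as frequent as in the whole set. At a minimum width of 10 kb the share was 42.7%, against 36.7% of regions with H3K27me3, so the comparison changed with width. Wholly inside a gene and away from its ends were 3851 (48.6%, against 28.6% of all), and 2063 lay outside genes (26.0%, against 46.1%). For regions with H3K27me3 the share inside a gene was 24.1% and outside genes 50.6%. A protein-coding gene was touched by 72.8% of the regions without H3K27me3, against 53.0% of all.

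Regions at gene ends were found most often elsewhere. PRC2cKO held 66.0% of those at gene ends, 48.6% of those inside genes and 32.9% of those outside. PRC2ctrl held 67.4%, 50.3% and 41.6%. At E18.5 the shares were 86.5%, 78.0% and 45.3%, at P1 65.0%, 56.5% and 46.0%, and at P7 35.6%, 18.9% and 12.9%. The regions outside genes were thus the least often found in each of the 5 lists, with width not matched between places.

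Long genes held several regions each. There were 2045 protein-coding genes with a region wholly inside, of median length 86.7 kb, against 17.5 kb for all 20665 autosomal protein-coding genes. Of these, 171 held 5 or more and 28 held 10 or more. Ptprg, a receptor tyrosine phosphatase gene of 689 kb on chromosome 14, held the most, 26, which covered 39.3% of its length. H2AK119ub covered 13.8% of Ptprg in PRC2cKO and 20.6% in PRC2ctrl, and 43.6%, 28.5%, 44.0% and 1.8% at E18.5, P1, P6 and P7. WT H3K27me3 covered at most 0.55% of it at any stage. Arhgap26 and Cacna2d3 followed with 20 each, Dscam and Nckap5 with 19, and Dock1 with 18. Most of these genes also carried WT H3K27me3 elsewhere in their length. At its highest stage it covered 20.6% of Arhgap26, 12.9% of Cacna2d3, 8.7% of Dscam, 6.7% of Nckap5 and 0.87% of Dock1.

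Trappc9, a subunit of a vesicle transport complex, was covered by regions without H3K27me3 over 61.1% of its 472 kb and by no WT H3K27me3 peak at any stage. PRC2cKO H2AK119ub covered 22.9% of it and PRC2ctrl 22.4%, with 60.5%, 32.0%, 63.9% and 0.40% at E18.5, P1, P6 and P7. The 2 genotypes were close there, and the P7 list was nearly empty. Dock1, an exchange factor for Rac, had 38.2% in PRC2cKO and 51.5% in PRC2ctrl, and 86.8%, 77.3%, 66.4% and 1.5% at E18.5, P1, P6 and P7. In Fhod3, a formin of muscle, coverage was 22.8% in PRC2cKO and 32.7% in PRC2ctrl, with 0% at P7.

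Along the chromosomes, the regions formed 4414 runs in which no other broad region stood between neighbours. A single region made up 2821 of the runs, and 242 runs of 5 or more held 1726 regions. The longest run, of 26, was that of Ptprg, and the next, of 21 over 593 kb on chromosome 15, spanned Trappc9, Ago2 and Chrac1. On chromosome 9 a run of 14 included Smarca4, Dnm2 and Carm1. By chromosome, between 14.5% (chromosome 9) and 22.2% (chromosome 15) of the broad P6 regions were without H3K27me3.

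Genes with an end within 1 kb of a region without H3K27me3 numbered 2683 of 20665 (13.0%), while 10851 (52.5%) lay by a region with H3K27me3 and 598 by both. The 2 counts given below for a gene list can likewise share genes. Genes that pattern the body were almost absent. None of the 39 Hox genes was by a region without H3K27me3, and 38 were by one with it. Of 76 developmental transcription factors, Tbx4, a factor of the hindlimb, was the only one. It was also among the 75 that were by regions with H3K27me3. Because the rule removed regions with WT H3K27me3, such low counts follow from the choice of regions and are read no further. Olfactory and vomeronasal receptor genes counted 5 of 1452, with 76 by regions with H3K27me3 and 1371 by no broad region. The lists were chosen with earlier results of these data known, and no test was run on them.

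Genes of DNA repair and checkpoints stood by regions without H3K27me3 more often than by the other kind. There were 15 of 50 (30.0%, interval 17.9 to 44.6%), against 8 of 50 by regions with H3K27me3. Over all genes the shares were 13.0% and 52.5%. Because the kinds of region were divided by WT H3K27me3, the kind a gene list stands by reflects in part whether its genes carry that mark. High counts by regions without H3K27me3, here and in the lists below, are therefore given as a description only. The 15 included Xrcc3 and Fancc, which act in repair of double-strand breaks and of crosslinks, Parp1, a sensor of strand breaks, Trp53 and Msh3. The Xrcc3 region, 38.4 kb wide, was covered over 24.2 kb in PRC2cKO and 29.4 kb in PRC2ctrl, and over 38.4, 38.4 and 7.59 kb at E18.5, P1 and P7. Parp1 had a region of 17.4 kb with 2.79 kb in PRC2cKO and 7.67 kb in PRC2ctrl, and none at P7. The region of Fancc, 32.3 kb wide and 122 kb from the nearest WT H3K27me3, had 11.2 kb in PRC2cKO and 14.7 kb in PRC2ctrl.

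Widely expressed machinery was present at varied shares. Aminoacyl tRNA synthetases, which load tRNAs, counted 11 of 34 (32.4%, interval 17.4 to 50.5%), and 11 were by regions with H3K27me3. Proteasome genes counted 11 of 42 (26.2%) and respiratory chain genes 14 of 73 (19.2%), against 13.0% of all genes. RNA polymerase II and general transcription factors counted 18 of 86 (20.9%) and translation factors 16 of 67 (23.9%). By regions with H3K27me3 these lists counted 13, 25, 30 and 26, where the share of all genes was 52.5%. The translation list was drawn by gene symbol and is broad, since it took in kinases, methyltransferases and binding proteins named after the factors. Cytosolic ribosomal proteins counted 9 of 80, mitochondrial ribosomal proteins 11 of 78 and spliceosome genes 10 of 83, close to the 13.0% of all genes. All 11 mitochondrial ribosomal genes had a region found in PRC2cKO, and 9 had one found in PRC2ctrl. Over all 2683 genes the same counts were 1888 and 1897.

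Among the genes of this machinery, Rpl36, a protein of the large ribosomal subunit, had a region of 22.4 kb with 16.2 kb in PRC2cKO and 8.53 kb in PRC2ctrl. At E18.5, P1 and P7 it had 20.0, 15.9 and 5.18 kb. Mrps34, a protein of the small mitochondrial ribosomal subunit, had 8.47 kb in PRC2cKO and 11.7 kb in PRC2ctrl of a 17.7 kb region. Psmd7, a proteasome subunit, had a region of 7.62 kb that was in no other H2AK119ub list. The narrowest of these 3 regions was thus listed in WT P6 alone.

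Insulin, PI3K, mTOR and autophagy genes, which control the start of oocyte growth and nutrient use, counted 15 of 50 (30.0%, interval 17.9 to 44.6%). The share of all genes was 13.0%, and 17 of the list were by regions with H3K27me3, with 3 genes by both. A region found in PRC2cKO stood by 10 of the 15 and one found in PRC2ctrl by 12, while over all 2683 genes the counts were 1888 and 1897. All 15 had a region found at E18.5, 8 had one at P1 and 7 at P7, where over all genes the counts were 2382, 1841 and 1117. Besides Stk11, they included Tsc2, Akt2, Pik3r1, Flcn, Sqstm1 and Ulk1. Flcn, the folliculin gene of lysosomal mTORC1 signalling, lay in a region of 32.1 kb with 9.93 kb in PRC2cKO and 12.1 kb in PRC2ctrl, and 19.7, 0 and 2.39 kb at E18.5, P1 and P7. Sqstm1, an autophagy receptor, had 2.83 kb in PRC2cKO and 0 kb in PRC2ctrl. Ulk1, the kinase that starts autophagy, had 7.55 kb in PRC2cKO and 7.92 kb in PRC2ctrl.

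Germline genome defence and identity genes counted 10 of 38 (26.3%, interval 13.4 to 43.1%), against 13.0% of all genes, and 19 were by regions with H3K27me3. The 10 were Brdt, Dnd1, Dppa2, Dppa4, Kit, Piwil2, Pld6, Slc25a31, Stk31 and Tdrd5. Dppa2, an activator of early embryonic genes with Dppa4, lay by a region of 12.4 kb with 3.38 kb in PRC2cKO and 3.82 kb in PRC2ctrl, and 7.48, 4.16 and 0 kb at E18.5, P1 and P7. Piwil2, the Argonaute-family protein that binds piRNAs, had 2.39 kb in PRC2cKO and 2.76 kb in PRC2ctrl of 14.4 kb. Dnd1, an RNA-binding protein that germ cells need to survive, and Hars, a tRNA synthetase, lay by the same region, as did Pld6, a mitochondrial factor of piRNA formation, and Flcn. Such pairs count as 2 genes and share 1 set of values.

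Meiotic prophase genes counted 5 of 38 (13.2%, interval 4.4 to 28.1%), near the 13.0% of all genes. Genes of oocyte growth and maternal effect counted 4 of 51 (7.8%), with an interval of 2.2 to 18.9% that holds the share of all genes. The 4 were Bcl2l10, Omt2b, Padi6 and Trim28. Trim28, a corepressor that protects imprints after fertilisation, had a region of 19.0 kb with 9.03 kb in PRC2cKO and 14.6 kb in PRC2ctrl, and 17.8, 19.0 and 5.16 kb at E18.5, P1 and P7. Padi6, a component of the cytoplasmic lattices, had 0 kb in both Eed genotypes and 7.53, 3.95 and 2.89 kb at the 3 stages. Sgo2a, which guards centromere cohesion in meiosis, had a region in no other H2AK119ub list.

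Polycomb genes and H2A deubiquitinases counted 9 of 51 (17.6%, interval 8.4 to 30.9%), against 13.0% of all genes, and 29 were by regions with H3K27me3. The 9 were Auts2, Fbrs, L3mbtl2, E2f6, Wdr5 and Cbx3, which belong to variant PRC1 complexes, the canonical subunit Phc1, the deubiquitinase Usp16, and Eed itself, the gene deleted in PRC2cKO. L3mbtl2 lay by a region of 22.6 kb with 11.3 kb in PRC2cKO and 16.3 kb in PRC2ctrl, and 20.8, 19.0 and 7.23 kb at E18.5, P1 and P7. Wdr5 had 0 kb in PRC2cKO and 5.28 kb in PRC2ctrl, and Fbrs had 3.09 kb in PRC2cKO and 0 kb in PRC2ctrl. Chromatin modifiers counted 13 of 46 (28.3%, interval 16.0 to 43.5%), with Dnmt1, Dnmt3a, Kmt2d, Setdb1 and Hdac3 among them, and 20 were by regions with H3K27me3. By both kinds of region lay 6 of the 13. Kmt2d, an H3K4 methyltransferase, had a region of 29.6 kb with 5.54 kb in PRC2cKO and 5.43 kb in PRC2ctrl.

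Cell cycle genes counted 10 of 47 (21.3%), apoptosis genes 5 of 30 (16.7%), replication-dependent histones 12 of 58 (20.7%) and zinc finger genes 69 of 452 (15.3%). The share of all genes was 13.0%. By regions with H3K27me3 the same lists counted 23, 17, 19 and 149. Genes by both kinds of region numbered 6, 1, 0 and 12, so 6 of the 10 cell cycle genes also lay by H3K27me3. Bax, a trigger of mitochondrial apoptosis, had a region of 17.8 kb with 7.54 kb in PRC2cKO and 7.53 kb in PRC2ctrl, and 16.2, 9.73 and 3.29 kb at E18.5, P1 and P7. All 5 apoptosis genes had a region found at P7, while over all genes 1117 of 2683 did. Of markers of other ovarian cells, 1 of 29 granulosa and stroma genes was by a region without H3K27me3, Star (3.4%, interval 0.09 to 17.8%), and 2 of 20 blood and endothelial genes, Cd68 and Ptprc (10.0%, interval 1.2 to 31.7%). Both intervals hold the 13.0% of all genes. By regions with H3K27me3 these lists counted 24 and 15. Peak lists of a repressive mark do not show which cells the chromatin came from, so they give no check of the purity of the oocytes.

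**Figure D5:**
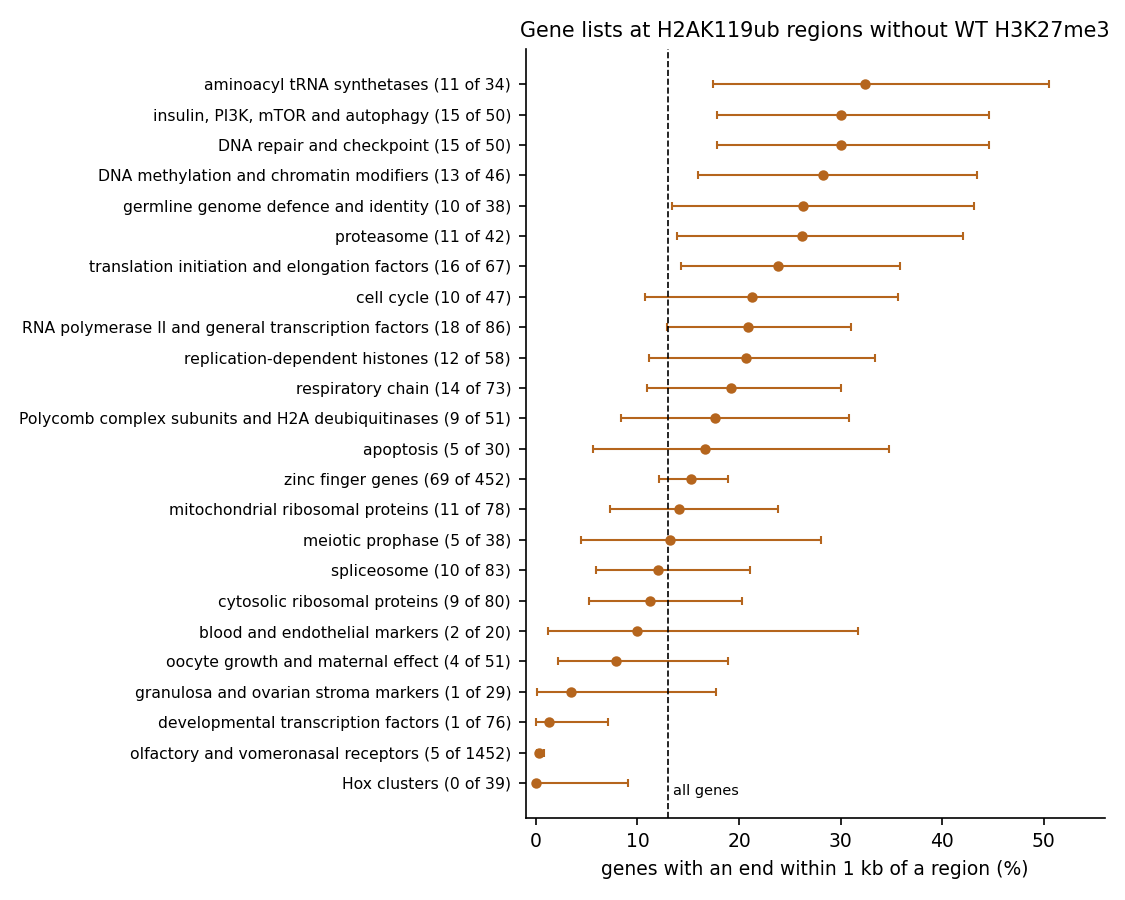
Percent of the genes of 24 lists that have an end within 1 kb of a region without WT H3K27me3, with exact 95% intervals and the counts beside each name. The dashed line marks 13.0%, the share among all 20665 protein-coding autosomal genes; aminoacyl tRNA synthetases stand highest (11 of 34) and Hox genes lowest (0 of 39).

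The promoters by these regions were rich in CpG. RefSeq promoters of 300 bases were at hand for 16457 of the 20665 genes, and 1202 promoters of 980 genes had their start inside a region without H3K27me3. Their median number of CpG was 19 and their median ratio of observed to expected CpG 0.71. Promoters by regions with H3K27me3 had a median of 12 and a ratio of 0.50, and all promoters had 14 and 0.59. A ratio of 0.6 or more was reached by 62.2% of promoters by regions without H3K27me3, 41.6% of those by regions with it and 48.9% of all. Promoters by no broad region had a median of 14 and a ratio of 0.64, and 52.9% of them reached 0.6. Within the regions, promoters had a median ratio of 0.71 both where the region was found in PRC2cKO and where it was not. The 40 promoters in regions found in no other H2AK119ub list had a median ratio of 0.53 and a median of 12 CpG, and 45.0% of them reached 0.6.

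Exact matches to 2 short motifs, sought on both strands, neither of which holds the other, were counted in the same windows. GCGGGA, a core of E2F sites, occurred in 33.2% of promoters by regions without H3K27me3, 27.1% of those by regions with it and 26.3% of all. CACGTG, the E-box that MYC and MGA family proteins bind, occurred in 9.98%, 7.29% and 7.89%. The part of CpG content in these shares was not tested. Where a region held an annotated start, its point of highest signal lay a median of 586 bp from the nearest start in 845 regions without H3K27me3, against 1188 bp in 5377 regions with it. Regions without H3K27me3 were narrower (median 6.85 kb against 10.2 kb), and the part of width in this distance was not tested.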

How the data were processed

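H2AK119ub and H3K27me3 were profiled by CUT&Tag in 16 groups of 2 samples, and the authors deposited 1 peak list per group, so the 2 samples cannot be told apart. Each list gives peak coordinates and, for each peak, the deposited signal summed over its length and a score that is its highest signal, with its position. Both are the authors' own values and served only for ranking and description inside 1 list. Tools named in the submitters' processing notes are SAMtools, deepTools, Picard 3.0.0, Bowtie2 and Trim Galore 0.6.10, and the builds are GRCm38, mm10 and dm6. Drosophila S2 cells were added to the reactions per the labels' protocols. The sources used here give neither the peak caller nor its threshold nor any scaling, and no read depth.

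A region was called found when a peak shared at least 1 bp with it. Covered lengths, exact Clopper-Pearson 95% intervals (SciPy 1.17.1, Python 3.11.15) and distances were computed, and the overlap code was tested on simulated data. Because each list pools the 2 samples of its group, replicates could not be compared, and no tests or p-values were computed. Genes and promoters came from RefSeq (GRCm38.p6). That gene table has no strand, so both gene ends stood for the start. The members and gene lists were chosen with earlier results of these data known. Named genes lay at, in or nearest to the 10 regions of highest total signal, the 10 widest, the 10 strongest found in all lists or in 1 Eed genotype, and the 10 with most H3K27me3 in another list, with up to 4 genes of each list by covered length within 5 kb. Full lists of up to 15 genes and genes with many regions were named after their values were seen. Alternatives changed the width, the overlap and the extent of the lists. Some genes that these rules name are not reported here.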

Additional observations from a re-analysis of the deposited data

How the results depend on the processing

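In all 36 shares recomputed under the alternatives for the 5 other H2AK119ub lists, the regions that met the rule were found less often than the other broad regions, but the values themselves moved. Where the alternative changed the rule on H3K27me3 itself (none within 5 kb, or in none of the 10 lists), those other regions took in some that overlapped no WT H3K27me3. Cuts to equal covered length or equal numbers of peaks took in the WT H3K27me3 lists too. Regions that then met the rule may overlap WT H3K27me3 peaks of the full lists. The shares below are in the order PRC2cKO, PRC2ctrl, E18.5, P1, P7 and, where given, H3K27me3 in any knockout or control list. With at least 50% of a region covered they were 20.3%, 30.3%, 61.2%, 41.5%, 2.9% and 6.0%. In the upper 50% of the other lists by total signal they were 22.0%, 22.9%, 49.97%, 29.4%, 8.2% and 4.4%. At a minimum width of 10 kb, 1731 regions remained with 80.2%, 80.4%, 93.9%, 80.6%, 39.5% and 14.6%, and 42.7% held a gene end, against 36.7% of the other regions. With lists cut to equal covered length, 535 regions gave 93.1%, 74.0%, 57.4%, 62.2%, 92.7% and 34.0%, and 63.4% held a gene end. Equal numbers of peaks gave 45.1% in PRC2cKO, 63.1% at E18.5, 45.9% at P1, 12.6% at P7 and 20.9% for H3K27me3. Without WT H3K27me3 within 5 kb the shares that moved were 50.1% in PRC2cKO, 75.2% at E18.5 and 11.0% for H3K27me3. Gene ends inside the region itself were at 22.1%. An alternative chosen after seeing the data, no H3K27me3 in any of the 10 lists, gave 74.1% at E18.5 and 27.2% at gene ends. The other one cut PRC2ctrl to the covered length of PRC2cKO and gave 22.4% in PRC2ctrl. The cause of these shifts was not tested beyond the smaller sets and lists that the alternatives make. The other 13 values stayed within the interval of the value reported or, for the number of regions, within 1.5 times of it. No paired analysis was possible because each list pools the 2 samples of its group, and for the same reason no sample could be left out. Depth limits what a missing peak shows: a region not found was not listed at the authors' threshold, and may still carry the mark.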
